A study of Mus musculus with 18 samples.

Results

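In cells labelled as the mouse cardiomyocyte line HL-1, RNA sequencing measured the genes described here. They are 10 that move calcium into and out of the internal store of the cell. They are the 3 store pumps Atp2a1, Atp2a2 and Atp2a3, the release channels Ryr1, Ryr2, Itpr1, Itpr2 and Itpr3, and the store sensor Stim1 with its partner channel Orai1. They were found by symbol among the 29112 genes of the deposited read count table, and all 10 passed the filter on low counts that left 15074 genes for testing. They were chosen for their role in cardiomyocytes and selected on 1 measured value, the level of Atp2a3, which was more than 20-fold higher in both negative controls than in high glucose, so those contrasts are described without a test. In the mimic control Atp2a3 was 35.6-fold higher than in high glucose, and the next largest rise among the 10 genes was 2.22-fold, of Itpr3. In the inhibitor control it was 24.6-fold higher than in high glucose, and the next largest rise was 2.35-fold, of Atp2a2.

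The 18 libraries formed 6 groups of 3. Cells in high glucose were transfected with mimics of the microRNA miR-200a-3p (mimic), with the negative control of the mimics (mimic control), with an inhibitor of miR-200a-3p (inhibitor) or with the negative control of the inhibitor (inhibitor control). The other 2 groups, for which the labels name no transfected duplex, were cells treated with high glucose and cells given vehicle. All 4 transfected groups carried high glucose, so a transfected group and vehicle differed in glucose and in transfection together. Transfected cells were harvested 48 h after transfection with HiPerFect, a lipid reagent. The sources used here give neither the glucose concentrations nor the time in glucose, and do not say whether untransfected cells received the reagent. Nothing in the labels states that the 3 libraries of each group were grown as separate cultures, so p-values measure a spread that may be technical.

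Sarco-endoplasmic reticulum calcium ATPases (SERCA pumps, the Atp2a genes) use ATP to load calcium into the reticulum. Ryanodine receptors and inositol trisphosphate (IP3) receptors let it out again. When the store empties, STIM1 in the reticulum membrane senses the loss and opens ORAI1 in the plasma membrane. In a beating heart cell SERCA2 refills the store after each contraction and RyR2 releases it, whereas SERCA1 and RyR1 are the forms of fast skeletal muscle, and SERCA3 is best known from blood cells, platelets, endothelium and secretory epithelia.

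Library totals were 33655916 to 37928790 reads, so 3 reads, the limit that a count of 0 allows, came to 0.0791 to 0.0891 CPM (counts scaled to library size). Few markers of the labelled cell type reached 1 CPM. Of 16 cardiomyocyte markers 15 were listed, and 5 averaged at least 1 CPM in each group. The 5 were not the same throughout. Nkx2-5 averaged 1.42 CPM and Nppb 0.667 CPM in vehicle, against 0.248 and 2.61 CPM in inhibitor. Myh6, Actn2, Tnni3 and Mb averaged under 1 CPM throughout, with Myh6 at 0.0547 to 0.137 CPM. Summed over the 15 listed markers, the level was 35.3 to 37.6 CPM in mimic and 31.5 to 33.8 in mimic control. It was 123 to 131 CPM in inhibitor and 106 to 129 in inhibitor control. It was 64.9 to 77.6 CPM in high glucose and 63.1 to 64.8 in vehicle. The 5 fibroblast markers given below summed to more in each group, at 481 to 2314 CPM across the libraries. Nppa, the atrial natriuretic peptide, had at most 1 read in any group, and Pln, the phospholamban that restrains SERCA2, had 1 read in vehicle and 0 in the other groups. Mimic replicate 2 stood apart, with 1138 CPM over 11 macrophage markers, against 28.9 to 60.8 CPM in libraries of the other groups. Calls that changed when this library was left out, a fit chosen after seeing the data for the partner genes, are given where they occur. In these bulk libraries fewer cells of a type and less RNA per cell cannot be told apart.

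The transfected reagents turn on the mature sequence below, shown because its seed (bases 2 to 8, in capitals) sets which transcripts it can pair with. It is RefSeq's mmu-miR-200a-3p, 22 nt long, at chr4:156054911-156054932 on the minus strand of GRCm38.p6.
mmu-miR-200a-3p: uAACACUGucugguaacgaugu
The complement of the seed is CAGTGTT, and 3 kinds of site were searched, namely CAGTGTTA (8mer), CAGTGTT (7mer-m8) and AGTGTTA (7mer-A1). None of the 10 genes had any of them in the canonical 3′ untranslated region of GENCODE's GRCm39 annotation, whereas 27.5% of 12906 tested genes did, and 5.31% had an 8mer. These regions were 114 bases (Ryr1) to 3372 bases (Itpr2) long. The absence says only that these letters are not in these windows.

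Promoter sequences, shown for the 3 genes whose levels differed most between groups, span 250 bases before to 50 bases after the RefSeq start (GRCm38.p6). RefSeq entries were matched for 8 of the 10 genes, all but Atp2a2 and Itpr1. Capitals mark the GC box (GGGCGG or CCGCCC), the CCAAT box (CCAAT or ATTGG) and the E-box CANNTG, searched on both strands, with overlapping matches counted separately. Atp2a3 lies at chr11:72960919-72961218 on the plus strand, Atp2a1 at chr7:126463024-126463323 and Ryr1 at chr7:29125102-29125401, both on the minus strand.
Atp2a3: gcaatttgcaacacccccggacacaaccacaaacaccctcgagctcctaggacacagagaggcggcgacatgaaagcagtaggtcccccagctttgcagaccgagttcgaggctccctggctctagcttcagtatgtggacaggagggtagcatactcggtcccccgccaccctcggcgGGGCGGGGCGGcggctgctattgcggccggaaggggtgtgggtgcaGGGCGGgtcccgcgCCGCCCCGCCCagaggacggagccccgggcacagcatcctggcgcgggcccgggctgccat
Atp2a1: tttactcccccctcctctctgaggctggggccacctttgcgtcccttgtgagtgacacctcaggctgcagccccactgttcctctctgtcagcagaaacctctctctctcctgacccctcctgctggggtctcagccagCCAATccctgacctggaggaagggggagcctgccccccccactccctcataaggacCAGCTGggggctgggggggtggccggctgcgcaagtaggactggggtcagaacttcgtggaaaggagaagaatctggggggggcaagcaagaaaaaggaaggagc
Ryr1: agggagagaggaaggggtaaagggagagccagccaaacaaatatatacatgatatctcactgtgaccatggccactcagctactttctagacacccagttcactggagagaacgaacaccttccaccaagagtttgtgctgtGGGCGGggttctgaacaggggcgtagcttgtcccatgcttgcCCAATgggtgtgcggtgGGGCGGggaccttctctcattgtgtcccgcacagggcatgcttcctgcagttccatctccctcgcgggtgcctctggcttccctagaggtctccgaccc
The Atp2a3 window was 68.3% G and C, against a median of 52.7% over 32851 promoters, and held 5 GC boxes and no CCAAT box or E-box. The Atp2a1 window, 62.3% G and C, held 1 E-box and 1 CCAAT box. The Ryr1 window, 56.7% G and C, held 2 GC boxes and 1 CCAAT box. Among all promoters 35.7% had a GC box, 37.4% a CCAAT box and 72.3% an E-box. The composite element TGATGNAA (reverse TTNCATCA), which ATF4 binds together with C/EBP factors, was in 3.97% of all promoters and in 0 of the 8 matched. With so low a share and only 8 windows, this count says nothing about whether ATF4 binds these genes.

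Atp2a3, which encodes SERCA3, was high in transfected and low in untransfected cells. Its gene lies at chr11:72851990-72883870 on the plus strand of GRCm39 and no annotated gene overlaps it. Atp2a3 stood at 43.2, 40.0 and 39.1 CPM in mimic libraries, 53.6, 50.3 and 52.7 CPM in mimic control, 36.6, 36.1 and 36.0 CPM in inhibitor, 35.3, 37.0 and 35.6 CPM in inhibitor control, 1.53, 1.53 and 1.33 CPM in high glucose, and 2.62, 2.45 and 2.24 CPM in vehicle libraries. All 12 transfected libraries were above all 6 untransfected ones, the mimic control libraries were the highest and the high glucose libraries the lowest. The inhibitor and inhibitor control libraries overlapped. The counts behind the low groups were 156 reads in high glucose and 268 reads in vehicle.

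Against vehicle, in contrasts that did not enter the choice of the gene, Atp2a3 rose 16.7-fold in mimic cells (log2 fold change 4.06 ± 0.0680 SE, adjusted p = 1.30e-20, edgeR's quasi-likelihood test). In inhibitor cells it rose 14.8-fold over vehicle (3.89 ± 0.0681, adjusted p = 5.58e-20, same test). Both contrasts use the same vehicle libraries. In high glucose Atp2a3 was at 1.46 ± 0.119 CPM, against 2.44 ± 0.191 CPM in vehicle (SD, n = 3 each; log2 fold change -0.74 ± 0.0988). In mimic cells Atp2a3 was at 40.8 ± 2.20 CPM, against 52.2 ± 1.69 CPM in mimic control (log2 fold change -0.36 ± 0.0511). The inhibitor gave a log2 difference of 0.01 from its control, with a 95% interval of -0.10 to 0.12. Libraries of high glucose and of both negative controls had entered the choice of Atp2a3. The high glucose, mimic and inhibitor differences of this gene are therefore given as descriptions.

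**Figure D1:**
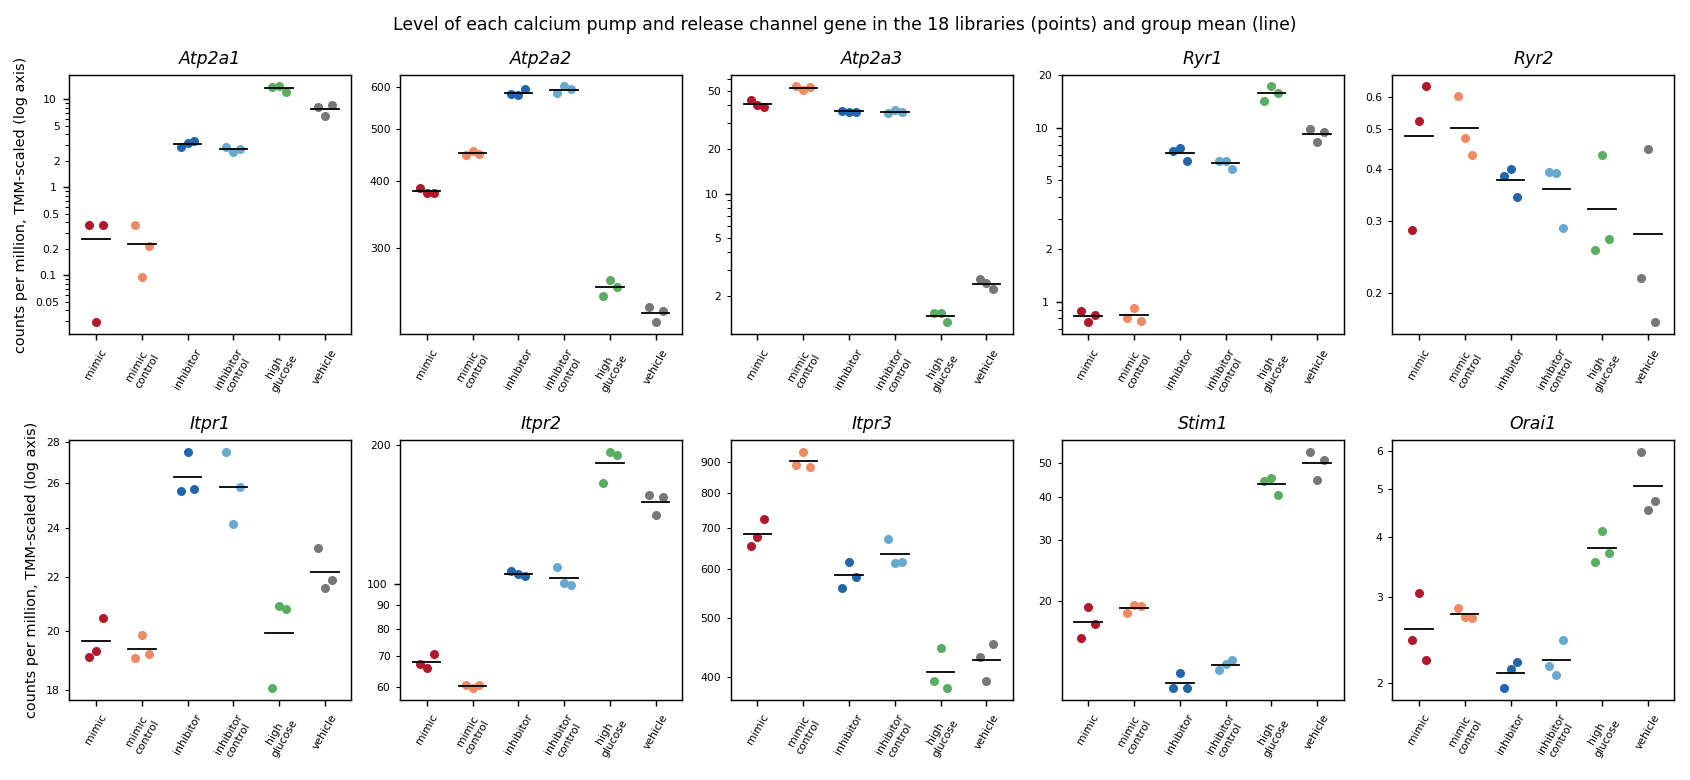
Level of the 10 genes in TMM-scaled CPM on a log axis (the axes differ between panels), 1 point for each of the 18 libraries and a line at each group mean. Atp2a3 is at 35.3 CPM or above in the 12 transfected libraries and at 2.62 CPM or below in the 6 untransfected ones, while Atp2a1 and Ryr1 are lowest in the mimic and mimic control libraries.

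Atp2a1 encodes SERCA1 and lies at chr7:126045013-126063423 on the minus strand, where its 3′ end overlaps Rabep2 on the opposite strand. Atp2a1 had 0.371, 0.0292 and 0.376 CPM in mimic, 0.374, 0.0954 and 0.216 CPM in mimic control, 2.84, 3.19 and 3.35 CPM in inhibitor, 2.84, 2.52 and 2.75 CPM in inhibitor control, 13.6, 14.0 and 12.2 CPM in high glucose, and 8.21, 6.40 and 8.61 CPM in vehicle libraries. The order was thus high glucose, vehicle, the inhibitor pair and the mimic pair, and only groups within a transfected pair overlapped. In the mimic and mimic control groups the gene had 27 and 23 reads in all, so levels there are coarse.

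Glucose raised Atp2a1 1.72-fold over vehicle (log2 fold change 0.78 ± 0.188, edgeR adjusted p = 0.00450). It fell below vehicle in mimic cells by 4.88 ± 0.293 on the log2 scale, which is 29.4-fold lower (edgeR adjusted p = 3.76e-12), and in inhibitor cells by 1.31 ± 0.204, which is 2.48-fold lower (edgeR adjusted p = 6.99e-06). The mimic and its control differed by 0.15 on the log2 scale with an interval of -0.93 to 1.24, which still holds a 2-fold rise. The summed level of skeletal muscle markers ran in a like order. The sum of 7 (Myog, Myod1, Acta1, Tnnt3, Mylpf, Myh3 and Ckm) was 2.44 to 2.99 CPM in mimic, 2.59 to 2.93 in mimic control, 23.1 to 28.2 in inhibitor, 23.9 to 30.0 in inhibitor control, 84.7 to 99.7 in high glucose and 59.4 to 64.0 in vehicle libraries. Of these 7, 0 reached 1 CPM in mimic or mimic control cells and 5 did in vehicle cells. In each of high glucose, inhibitor and inhibitor control 6 did, so this count does not follow the order of the sums. In untransfected cells Myh3, Tnnt3, Acta1 and Mylpf carried the sums, and single markers did not all keep the order. Myog averaged 1.98 CPM and Myod1 1.54 CPM in inhibitor, against 0.927 and 1.19 CPM in vehicle, while Mylpf averaged 12.3 CPM and Ckm 0.713 CPM in high glucose, against 12.9 and 0.985 CPM in vehicle. The summed level of 5 fibroblast markers (Col1a1, Col1a2, Pdgfra, Dcn and Postn) was also highest in high glucose and lowest in the mimic pair, at 481 to 499 CPM in mimic, 517 to 529 in mimic control, 815 to 886 in inhibitor, 873 to 922 in inhibitor control, 2003 to 2314 in high glucose and 1684 to 1807 in vehicle libraries. Single fibroblast markers did not all keep this order. Col1a2 averaged 1416 CPM and Pdgfra 77.9 CPM in high glucose, against 998 and 56.0 CPM in vehicle. Col1a1, Dcn and Postn were lower in high glucose, at 605, 42.4 and 0.431 CPM, against 658, 46.6 and 0.449 CPM in vehicle. Dcn averaged 23.9 CPM in mimic, against 14.9 CPM in inhibitor, and Postn was highest in inhibitor, at 1.93 CPM. The part of either marker list in the Atp2a1 and Ryr1 values was not tested.

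Atp2a2, the SERCA2 gene at chr5:122591575-122640903 on the minus strand, was the leading pump in every library, though nearly its whole length overlaps Anapc7 on the other strand. Because the strand setting of the counting was not given, some reads of Anapc7 may be counted for Atp2a2. Whether the exons of these genes overlap was not examined. It had 388, 380 and 380 CPM in mimic, 447, 455 and 450 in mimic control, 583, 578 and 596 in inhibitor, 584, 602 and 594 in inhibitor control, 244, 261 and 253 in high glucose, and 232, 217 and 229 in vehicle libraries. Every transfected library lay above every untransfected one, and only the inhibitor pair overlapped. Atp2a2 rose 1.69-fold in mimic cells over vehicle (edgeR adjusted p = 3.98e-13) and 2.59-fold in inhibitor cells over vehicle (edgeR adjusted p = 5.03e-17). The mimic lowered it relative to the mimic control (log2 fold change -0.24 ± 0.0394, edgeR adjusted p = 0.000200). High glucose raised it 1.12-fold over vehicle (0.16 ± 0.0397, edgeR adjusted p = 0.00536), a call that was lost when only the 2 groups were fitted (adjusted p = 0.0619) or no count filter was used (adjusted p = 0.0634).

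Per length, in the FPKM (fragments scaled to transcript length and library) that the authors deposited, the 3 pump genes together reached 66.6 ± 1.41 FPKM in mimic, 75.3 ± 0.151 in mimic control, 102 ± 1.30 in inhibitor, 103 ± 1.70 in inhibitor control, 45.9 ± 1.18 in high glucose and 40.3 ± 0.849 in vehicle cells (SD, n = 3). Atp2a2 held 88.2% to 93.3% of this FPKM sum as a group mean. The minor pump differed between groups. Atp2a3 held 10.9% ± 0.405 of the sum in mimic, 11.8% ± 0.427 in mimic control, 6.59% ± 0.128 in inhibitor and 6.48% ± 0.0785 in inhibitor control, against 0.611% ± 0.0453 in high glucose and 1.16% ± 0.0892 in vehicle. Atp2a1 held 0.106% ± 0.0787 in mimic, 0.0797% ± 0.0530 in mimic control, 0.862% ± 0.0690 in inhibitor and 0.740% ± 0.0510 in inhibitor control, against 8.38% ± 0.560 in high glucose and 5.57% ± 0.662 in vehicle. SERCA1 transcript was thus the second pump in untransfected libraries and SERCA3 transcript the second in transfected ones.

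**Figure D2:**
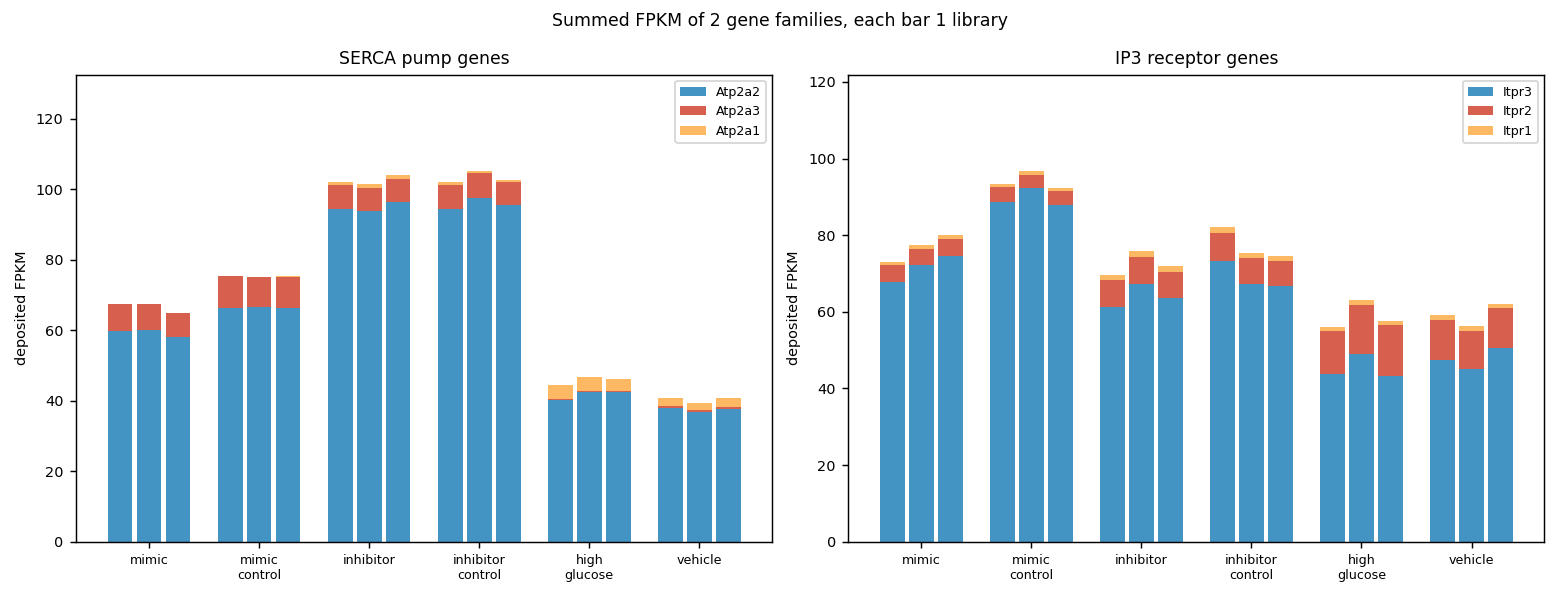
Deposited FPKM of the SERCA genes (left) and the IP3 receptor genes (right), stacked, with 1 bar for each library and 3 bars a group. Atp2a2 and Itpr3 hold most of each bar, Atp2a3 forms the second band in the transfected libraries and Atp2a1 in the untransfected ones, where it holds 8.38% in high glucose and 5.57% in vehicle.

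Among the ryanodine receptor genes of this set, Ryr1 was above Ryr2, the cardiac form, in every group, by length as well. Ryr3, which also passed the count filter, is not compared here. In the mimic pair the deposited FPKM, which are coarsely rounded, were 0.03 to 0.04 for Ryr1 and 0.01 to 0.02 for Ryr2. Mimic replicate 2 had 26 reads of Ryr1 and 18 of Ryr2. Group means were 0.0333 to 0.723 FPKM for Ryr1 and 0.01 to 0.0167 FPKM for Ryr2. Ryr1, at chr7:28702769-28824604 on the minus strand, had 0.884, 0.758 and 0.839 CPM in mimic, 0.805, 0.922 and 0.773 in mimic control, 7.35, 7.63 and 6.47 in inhibitor, 6.47, 6.45 and 5.78 in inhibitor control, 14.2, 17.3 and 15.8 in high glucose, and 9.85, 8.27 and 9.46 in vehicle libraries. The mimic pair was lowest and overlapped. The high glucose libraries were all above the vehicle libraries, which were all above the inhibitor pair. Ryr1 rose 1.71-fold in high glucose over vehicle (log2 fold change 0.78 ± 0.0901, edgeR adjusted p = 2.70e-06). It was 11.1-fold lower in mimic cells than in vehicle (-3.47 ± 0.122, edgeR adjusted p = 5.91e-16) and 1.28-fold lower in inhibitor cells than in vehicle (-0.36 ± 0.0931, edgeR adjusted p = 0.00147). In the mimic and mimic control groups it had 86 and 82 reads in all.

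Ryr2, at chr13:11567988-12121870, was near the limit of detection, with 31 to 50 reads a group and group means of 0.279 ± 0.149 CPM (vehicle) to 0.505 ± 0.0890 CPM (mimic control). It passed no test. The mimic group and vehicle differed by 0.77 ± 0.355 on the log2 scale (edgeR adjusted p = 0.0529), and without vehicle replicate 2 or mimic replicate 1 that p became 0.00510 or 0.0113, so single libraries decide it. Without vehicle replicate 2 the inhibitor group also passed against vehicle (adjusted p = 0.0359).

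Itpr3 was the main IP3 receptor transcript and the release channel gene that passed as lower in mimic cells than in their control. It lies at chr17:27275971-27343866 on the plus strand and overlaps Uqcc2 at its 3′ end on the opposite strand. Itpr3 had 654, 678 and 724 CPM in mimic, 889, 935 and 884 in mimic control, 560, 617 and 584 in inhibitor, 672, 615 and 616 in inhibitor control, 393, 446 and 384 in high glucose, and 430, 394 and 453 in vehicle libraries. Transfected libraries were all above untransfected ones, mimic control was the highest, and high glucose overlapped vehicle, as inhibitor did its control. The mimic lowered Itpr3 relative to its control by 0.40 ± 0.0636 on the log2 scale (edgeR adjusted p = 0.000133). It rose over vehicle 1.61-fold in mimic cells (edgeR adjusted p = 4.26e-09) and 1.38-fold in inhibitor cells (edgeR adjusted p = 1.40e-06). High glucose and vehicle differed by -0.06, with an interval of -0.20 to 0.08.

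Itpr2, the IP3 receptor that predominates in heart muscle, was lower in transfected than in untransfected cells. It lies at chr6:146009797-146403721 on the minus strand. Itpr2 had 67.3, 66.0 and 70.7 CPM in mimic, 60.6, 59.7 and 60.4 in mimic control, 107, 105 and 104 in inhibitor, 109, 100 and 99.5 in inhibitor control, 165, 193 and 190 in high glucose, and 156, 141 and 154 in vehicle libraries. Untransfected libraries were the highest and the mimic pair the lowest, with no overlap except between inhibitor and its control. High glucose raised Itpr2 1.22-fold over vehicle (edgeR adjusted p = 0.000875). It was 2.21-fold lower in mimic cells than in vehicle (log2 fold change -1.14 ± 0.0576, edgeR adjusted p = 2.06e-13) and 1.43-fold lower in inhibitor cells than in vehicle (edgeR adjusted p = 5.81e-08). Its rise in mimic cells over the mimic control, 1.13-fold, passed at an edgeR adjusted p of 0.0270. That call was lost when any of the 3 mimic control libraries, mimic replicate 1 or mimic replicate 3 was left out, with adjusted p of 0.0606 to 0.140.

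Itpr1, at chr6:108190048-108528070 on the plus strand, varied least of the 10 genes. Its group means were 19.6 ± 0.748 CPM in mimic, 19.4 ± 0.411 in mimic control, 26.3 ± 1.04 in inhibitor, 25.8 ± 1.67 in inhibitor control, 19.9 ± 1.60 in high glucose and 22.2 ± 0.837 in vehicle. It rose 1.18-fold in inhibitor cells over vehicle (edgeR adjusted p = 0.00147). Its fall in mimic cells relative to vehicle, -0.18 ± 0.0638 on the log2 scale, had an adjusted p of 0.0149 and was lost without mimic replicate 1 (0.0653), mimic replicate 2 (0.0546) or vehicle replicate 1 (0.0655).

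Per length, the 3 IP3 receptor genes summed to 76.9 ± 3.50 FPKM in mimic, 94.2 ± 2.30 in mimic control, 72.5 ± 3.11 in inhibitor, 77.3 ± 4.13 in inhibitor control, 58.9 ± 3.65 in high glucose and 59.2 ± 2.95 in vehicle cells. Itpr3 held 93.1% of the FPKM sum in mimic, 95.1% in mimic control, 88.4% in inhibitor and 89.4% in inhibitor control, against 77.0% in high glucose and 80.6% in vehicle. Itpr2 held 5.63% in mimic, 3.87% in mimic control, 9.69% in inhibitor and 8.84% in inhibitor control, against 21.1% in high glucose and 17.4% in vehicle. Itpr1 was 1.01% to 2.08% of the sum in each group.

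Stim1, the store sensor, at chr7:101916979-102086526 on the plus strand, was lower in all transfected libraries than in all untransfected ones. It had 15.6, 19.2 and 17.1 CPM in mimic, 18.5, 19.5 and 19.3 in mimic control, 11.2, 12.4 and 11.2 in inhibitor, 12.6, 13.1 and 13.5 in inhibitor control, 44.5, 45.5 and 40.6 in high glucose, and 54.0, 44.7 and 51.2 in vehicle libraries. The inhibitor libraries were the lowest and just below their control, while the mimic group overlapped its control. Stim1 was 2.89-fold lower in mimic cells than in vehicle (log2 fold change -1.53 ± 0.0770, edgeR adjusted p = 2.09e-13) and 4.30-fold lower in inhibitor cells than in vehicle (-2.11 ± 0.0796, edgeR adjusted p = 2.61e-15). Mimic and mimic control differed by -0.14 (edgeR adjusted p = 0.183), and without mimic replicate 2, the library with macrophage transcripts, the difference was -0.23 and passed (adjusted p = 0.0395). High glucose and vehicle differed by -0.20 ± 0.0729 (edgeR adjusted p = 0.0523), which passed without mimic replicate 2 (0.0202), without vehicle replicate 2 (0.00944), with no count filter (0.0266) and with limma on log2(FPKM + 1) (0.0358).

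Orai1, the plasma membrane channel that STIM1 opens, at chr5:123153043-123168535 on the plus strand, had group means of 2.58 ± 0.431 CPM in mimic, 2.77 ± 0.0702 in mimic control, 2.10 ± 0.130 in inhibitor, 2.23 ± 0.199 in inhibitor control, 3.79 ± 0.287 in high glucose and 5.08 ± 0.782 in vehicle. It fell below vehicle by 0.98 ± 0.133 on the log2 scale in mimic cells (edgeR adjusted p = 1.12e-06) and by 1.27 ± 0.135 in inhibitor cells (edgeR adjusted p = 3.27e-08). High glucose lowered it relative to vehicle (-0.42 ± 0.129, edgeR adjusted p = 0.0206). That call was lost on leaving out high glucose replicate 1 (adjusted p = 0.0782), replicate 3 of the same group (0.0656) or vehicle replicate 1 (0.156).

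Read by comparison, added miR-200a-3p moved 4 of the 10 genes and none by 2-fold, as 4.75% of all tested genes did. In mimic cells against mimic control 1 gene rose (Itpr2) and 3 fell (Atp2a2, Itpr3 and Atp2a3, whose choice used the mimic control libraries). Of all tested genes 33.7% were called (15.8% higher and 18% lower). In 4 of the 10 the libraries did not overlap, against 44.8% of all genes. The median log2 fold change was -0.09 over the 10 genes and 0.00 over all tested genes. These 4 of 10 are near the share of all genes. In inhibitor cells against inhibitor control 0 of 10 passed edgeR's test, as did 0% of all genes, and DESeq2 and limma also called 0 genes. At an unadjusted p under 0.05 there were 447 genes and 0 of the 10. Ryr1 and Stim1 had libraries that did not overlap between inhibitor and inhibitor control, as 10.6% of all genes did. Ryr1 differed by 0.20 on the log2 scale, with an interval of -0.01 to 0.41, and Stim1 by -0.17, with an interval of -0.35 to 0.01.

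The difference between the mimic effect and the inhibitor effect was tested as an interaction, for which 13.2% of all genes passed, 8.59% of all genes with a lower mimic effect. Of the 10 genes 3 passed, all lower. Atp2a2 had a difference of -0.22 ± 0.0556 (edgeR adjusted p = 0.0152) and Itpr3 of -0.28 ± 0.0898 (0.0425). Atp2a3 had a difference of -0.37 ± 0.0727, which is a description, since the libraries of both negative controls had entered the choice of that gene. The Itpr3 call was lost with the replicate number as a block (adjusted p = 0.0589), with limma on log2 FPKM (0.0960 and 0.0985) and without any single library of the 4 groups except inhibitor replicate 1, inhibitor control replicate 1 and mimic replicate 3 (0.0555 to 0.106), and that of Atp2a2 with no count filter (0.0659). For the remaining 7 genes no difference between the effects was shown.

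High glucose against vehicle raised 4 of the 10 (Atp2a1, Atp2a2, Itpr2 and Ryr1) and lowered 2 (Atp2a3 and Orai1). The choice of Atp2a3 had used the high glucose libraries. Of all tested genes 24.2% were called (12% higher and 12.2% lower). Libraries of 7 of the 10 did not overlap, against 34.6% of all genes. The median log2 fold change was 0.05 over the 10 genes and -0.00 over all tested genes, and none of the 10 differed by 2-fold, as 3.28% of all genes did. Atp2a1, Atp2a3 and Ryr1 had the largest changes, of 1.67-fold to 1.72-fold.

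Against vehicle, mimic cells had 3 genes higher (Atp2a2, Atp2a3 and Itpr3) and 6 lower (all the others except Ryr2), where 80.7% of all tested genes were called (41% higher and 39.8% lower). Libraries of 9 did not overlap, against 80% of all genes. Inhibitor cells had 4 higher (Atp2a2, Atp2a3, Itpr1 and Itpr3) and 5 lower (Atp2a1, Itpr2, Ryr1, Stim1 and Orai1) than vehicle, where 80.6% of all genes were called (40.5% higher and 40.2% lower), and 9 did not overlap, against 83% of all genes. Both counts are close to the share of all genes. The median log2 fold change was -0.58 in mimic cells and -0.06 in inhibitor cells over the 10 genes, against 0.04 and 0.02 over all tested genes.

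The negative controls differed from each other in 8 of the 10 genes, counting Atp2a3, which was chosen on its level in both of them. Inhibitor control was higher than mimic control in 5 genes and lower in 3, where 74.2% of all tested genes were called (38.5% higher and 35.7% lower), and no gene's libraries overlapped, against 78.1% of all genes without overlap. Atp2a1 was 11.5-fold higher in inhibitor control than in mimic control (log2 fold change 3.52 ± 0.331, edgeR adjusted p = 7.68e-09) and Ryr1 7.46-fold higher (2.90 ± 0.126, edgeR adjusted p = 8.09e-14). The 3 other higher genes were Itpr2 (0.77), Itpr1 (0.42) and Atp2a2 (0.40), and Stim1 (-0.55) and Itpr3 (-0.51) were lower, all log2 fold changes with edgeR adjusted p of 6.83e-06 or less. Atp2a3 had a log2 fold change of -0.54, given here as a description. Orai1 missed the threshold (-0.31, edgeR adjusted p = 0.0518) and passed without mimic replicate 2 (0.0281), without inhibitor control replicate 3 (0.0273), with DESeq2's size factors (0.0465) and with the compared groups alone (0.0332). The summed levels of cardiomyocyte, skeletal muscle and fibroblast markers, given above, were also higher in inhibitor control than in mimic control, and their part was not tested. The cardiomyocyte sum was carried by Tnnt2 (68.8 CPM in inhibitor control, 14.8 in mimic control) and Ttn (28.9 CPM in inhibitor control, 0.101 in mimic control). The cardiac transcription factors were lower in inhibitor control, with Gata4 at 8.75 CPM, against 11.9 CPM in mimic control, and Nkx2-5 at 0.322 CPM, against 2.01 CPM in mimic control.

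**Figure D3:**
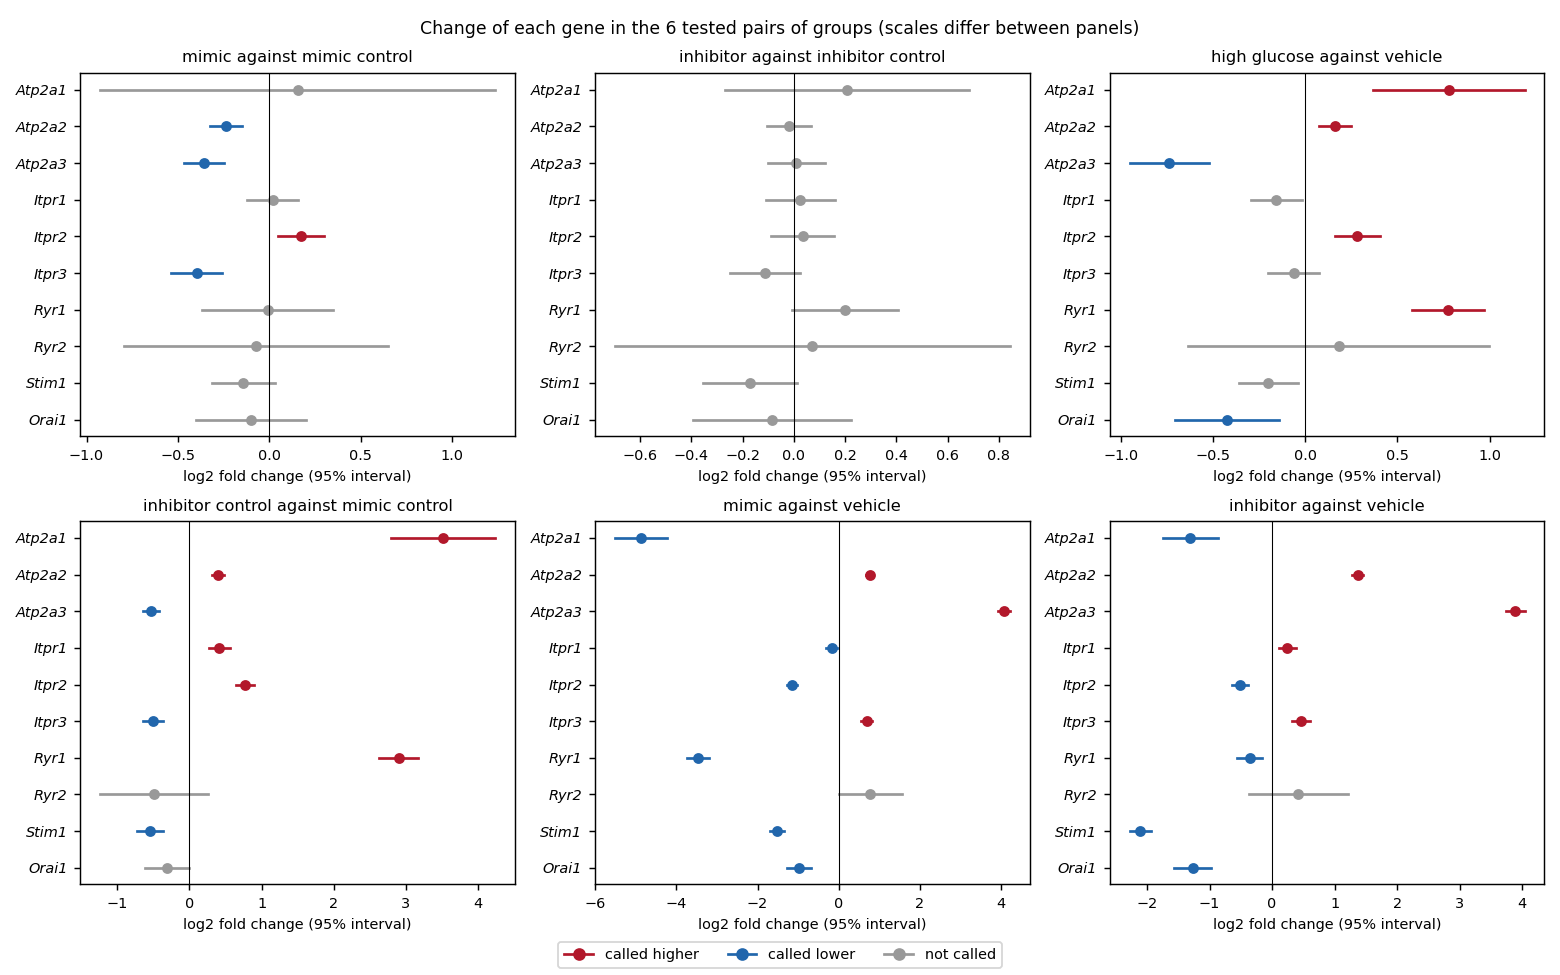
Log2 fold change of each gene with its 95% interval in the 6 tested pairs of groups, with genes past an adjusted p of 0.05 in red (higher) or blue (lower) and the others in grey, on axes that differ between panels. Atp2a3 stands at 4.06 in mimic and 3.89 in inhibitor against vehicle. In mimic against mimic control 3 genes, with Atp2a3 among them, are lower and 1 is higher, and no gene passes in inhibitor against inhibitor control. In panels that use high glucose or a negative control, the Atp2a3 values are descriptions, though coloured by the same threshold.

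The contrasts that chose the set are given as description. In mimic control against high glucose 2 genes were at least 2-fold higher (Atp2a3 and Itpr3) and 4 at least 2-fold lower (Atp2a1 by 56.2-fold, Ryr1 by 18.8-fold, Itpr2 by 3.04-fold and Stim1 by 2.28-fold), where 18.3% and 22.4% of all tested genes were that far higher and lower. In inhibitor control against high glucose 2 were at least 2-fold higher (Atp2a3 and Atp2a2) and 3 at least 2-fold lower (Atp2a1 by 4.91-fold, Stim1 by 3.33-fold and Ryr1 by 2.52-fold), with 19.6% and 17% of all genes that far higher and lower. Both contrasts share the high glucose libraries.

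The genes most like Atp2a3 in their pattern were sought over the 18 libraries by Pearson's r of log2 CPM among 10073 genes that reached 5 CPM in some group, and 54 had an r of at least 0.99. The closest 6 were Atf4 (r = 0.9991), the transcription factor of the integrated stress response, Ppp4r1 (0.9981), a phosphatase regulatory subunit, Ddx17 (0.998), an RNA helicase, Stc2 (0.9977), a secreted stanniocalcin, Acot2 (0.9969), a mitochondrial acyl-CoA thioesterase, and Srrt (0.9964), an RNA processing factor. The libraries lie in separate transfected and untransfected clusters on this measure, which differ in transfection, so an r over all 18 is dominated by the gap. Within the 12 transfected libraries r was 0.833 (Ppp4r1) to 0.933 (Atf4), and within the 6 untransfected ones 0.887 (Stc2) to 0.967 (Atf4). These ranges are descriptions, since the 6 genes were picked by r over the same libraries. Differences between groups also remain within each of these sets. Atf4 averaged 1197 ± 54.2 CPM in mimic, 1280 ± 21.4 in mimic control, 1059 ± 14.9 in inhibitor, 1063 ± 19.4 in inhibitor control, 192 ± 5.93 in high glucose and 257 ± 7.60 in vehicle.

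**Figure D4:**
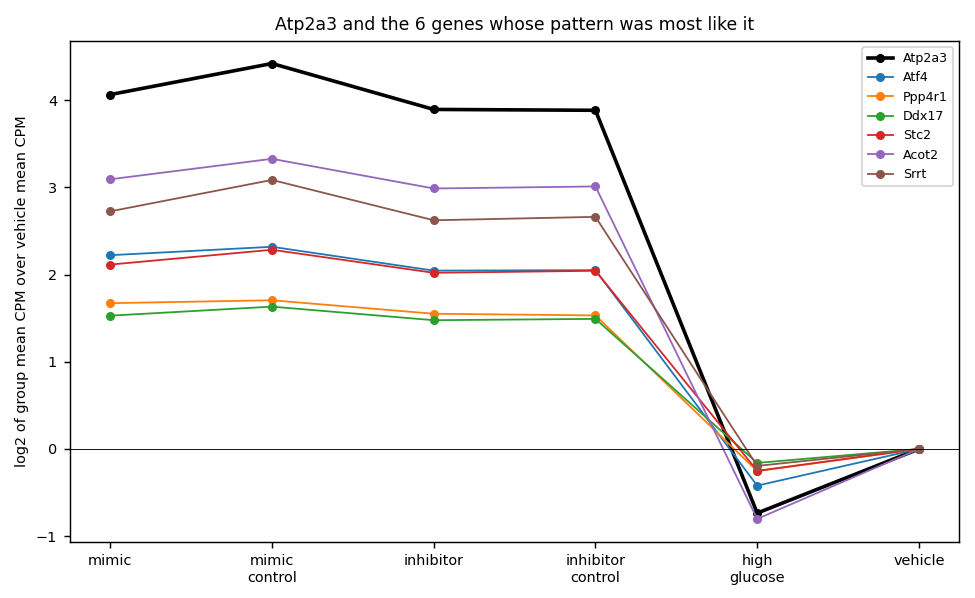
Log2 of each group's mean CPM over the vehicle mean for Atp2a3 (thick black line) and the 6 genes with the highest r, with the groups along the axis joined only to guide the eye. All 7 lines are high in the 4 transfected groups, with mimic control highest, and lowest in high glucose.

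The wider calcium machinery was read from 7 lists with 72 genes, of which 56 were tested. Against vehicle 8 rose and 33 fell in mimic cells, which is 73.2% of the 56, where 80.7% of all tested genes were called. In inhibitor cells 16 rose and 35 fell against vehicle, which is 91.1%, where 80.6% of all tested genes were called. The medians were -0.50 and -0.34 on the log2 scale, against 0.04 and 0.02 over all tested genes. High glucose raised 5 and lowered 7 relative to vehicle, which is 21.4%, against 24.2% of all tested genes. In inhibitor control 28 were higher and 12 lower than in mimic control, which is 71.4%, against 74.2% of all tested genes. In mimic cells against mimic control 15 rose and 9 fell, which is 42.9%, against 33.7% of all tested genes. In inhibitor cells against inhibitor control 0 passed edgeR's test, and 1 of the 56 had an unadjusted p under 0.05. The counts of each list below are to be read against these shares of all genes.

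Mimic replicate 2 decided part of the mimic calls among these 56 genes. Without it 10 rose and 6 fell in mimic cells against mimic control, and 8 calls were lost, of Asph, Cacna2d1, Cracr2a, Fkbp1b, Mcub, Rcn3, Slc8a1 and Smdt1 (named here for that loss, edgeR adjusted p = 0.0508 to 0.630). Slc8a1 had a log2 fold change of 1.59 with this library and 0.35 without it, and Fkbp1b of 1.26 with it and 0.27 without it. Cracr2a had 1.82 with it and -0.45 without it. Against vehicle 8 rose and 34 fell in mimic cells without it, as Smdt1 no longer passed (adjusted p = 0.0649) and Cracr2a (-1.62) and Cracr2b (-0.66) passed as lower. Without it Cracr2a also passed as lower in high glucose than in vehicle (0.00163) and in inhibitor control than in mimic control (0.00573), and no call changed in the comparisons of the inhibitor with its control and with vehicle. Apart from Cracr2a, the single genes named below kept the calls given for them.

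Transcripts encoding proteins that hold or couple the release channel changed in both directions. Of 15 tested, 4 rose and 10 fell in mimic cells against vehicle, and 6 rose and 8 fell in inhibitor cells against vehicle, which is 93.3% in each, against 80.7% and 80.6% of all tested genes. Hrc, a histidine-rich calcium binding protein of the reticulum lumen, was 0.0964 CPM in mimic cells, against 18.3 CPM in vehicle (log2 fold change -7.52 ± 0.233, edgeR adjusted p = 7.67e-17). That mimic level is close to the 0.0791 to 0.0891 CPM that 3 reads make, so the size of the fall is coarse. In inhibitor cells Hrc was 2.86 CPM, against 18.3 CPM in vehicle (-2.67 ± 0.139, edgeR adjusted p = 4.09e-13). Casq2, the calsequestrin that buffers calcium in the cardiac store, was 0.250 CPM in mimic cells, against 3.95 CPM in vehicle (-3.96 ± 0.190, edgeR adjusted p = 9.20e-14). Trdn, the triadin that anchors calsequestrin to the channel, had 0 reads in mimic and in mimic control, 125 reads each in inhibitor and inhibitor control, 29 in high glucose and 25 in vehicle. It rose in inhibitor cells over vehicle, at 1.15 CPM, against 0.226 CPM (2.32 ± 0.346, edgeR adjusted p = 1.24e-05). In inhibitor control against mimic control 13 of the 15 were higher and 1 lower, which is 93.3%, against 74.2% of all tested genes. Fkbp1b, which binds the cardiac ryanodine receptor, averaged 2.59 CPM in inhibitor control and 0.357 CPM in mimic control (2.85 ± 0.372, edgeR adjusted p = 8.34e-07). Jph1, a junctophilin that joins the store to the plasma membrane, rose in mimic cells over mimic control, at 28.2 CPM, against 21.5 CPM (0.39 ± 0.0592, edgeR adjusted p = 7.73e-05).

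Of the small SERCA regulators only Mrln, myoregulin, passed the filter, with 2 reads in mimic, 0 in mimic control, 54 in inhibitor, 47 in inhibitor control, 39 in high glucose and 33 in vehicle. It fell in mimic cells relative to vehicle (edgeR adjusted p = 0.000237). Among IP3 receptor regulators and luminal buffers, 2 rose and 7 fell of 10 in mimic cells against vehicle, which is 90% where 80.7% of all genes were called, and 3 rose and 7 fell in inhibitor cells against vehicle, which is 100% where 80.6% of all genes were called. Calr, the luminal buffer calreticulin, averaged 3274 CPM in mimic and 1578 CPM in vehicle (log2 fold change 1.05 ± 0.0737, edgeR adjusted p = 4.55e-11), and 6399 CPM in inhibitor against the same vehicle value (2.02 ± 0.0757, edgeR adjusted p = 2.27e-15). The mimic lowered Calr relative to its control, at 3274 CPM, against 4252 CPM (-0.38 ± 0.0730, edgeR adjusted p = 0.000713). Herpud1, a stress-induced protein of the reticulum membrane, rose in inhibitor cells to 99.1 CPM, against 13.4 CPM in vehicle (2.88 ± 0.0448, edgeR adjusted p = 1.93e-20). Rcn3, a reticulocalbin, fell in mimic cells to 7.44 CPM, against 87.0 CPM in vehicle (-3.55 ± 0.0727, edgeR adjusted p = 1.91e-19).

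In the store-operated list, beside Stim1 and Orai1, 0 rose and 4 fell of 9 in mimic cells against vehicle, which is 44.4% where 80.7% of all genes were called, and 0 rose and 7 fell in inhibitor cells against vehicle, which is 77.8% where 80.6% were called. Orai3, another ORAI channel, had 8.13 CPM in mimic, against 16.9 CPM in vehicle (log2 fold change -1.06 ± 0.0690, edgeR adjusted p = 1.42e-11). Stim2, the more sensitive store sensor, had 78.4 CPM in mimic, against 66.4 CPM in mimic control (0.24 ± 0.0520, edgeR adjusted p = 0.00175). Orai2 was the single gene of the list that passed as lower in high glucose in the fit of all 18 libraries. It was at 22.0 CPM, against 28.7 CPM in vehicle (-0.38 ± 0.0626, edgeR adjusted p = 0.000135). Cracr2a also passed as lower there without mimic replicate 2 (-1.25, edgeR adjusted p = 0.00163).

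Pumps and exchangers that carry calcium out of the cell or into the Golgi gave 1 higher and 5 lower of 9 in mimic cells against vehicle, which is 66.7% where 80.7% of all genes were called, and 3 higher and 5 lower in inhibitor cells against vehicle, which is 88.9% where 80.6% were called. Atp2b4, a plasma membrane calcium pump, fell in mimic cells to 6.49 CPM, against 249 CPM in vehicle (log2 fold change -5.26 ± 0.104, edgeR adjusted p = 1.15e-19), and in inhibitor cells to 11.7 CPM, against 249 CPM (-4.42 ± 0.0973, edgeR adjusted p = 9.40e-19). Atp2b1, its widely expressed relative, was 567 CPM in inhibitor control and 195 CPM in mimic control (1.54 ± 0.0644, edgeR adjusted p = 4.42e-14), and high glucose raised it to 346 CPM, against 278 CPM in vehicle (0.32 ± 0.0630, edgeR adjusted p = 0.000967). Slc8a1, the cardiac sodium-calcium exchanger, had 3.74 CPM in inhibitor control and 0.739 CPM in mimic control (2.33 ± 0.442, edgeR adjusted p = 8.44e-05).

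Voltage-gated channel genes passed the filter in 5 of 11 cases, with 0 higher and 3 lower in mimic cells against vehicle (60%, against 80.7% of all genes) and 3 higher and 2 lower in inhibitor cells against vehicle (100%, against 80.6% of all genes). Cacnb3, an auxiliary beta subunit, fell in both, at 30.2 CPM in mimic and 33.3 CPM in inhibitor, against 115 CPM in vehicle (log2 fold changes -1.93 ± 0.0732 and -1.79 ± 0.0725, edgeR adjusted p = 1.95e-15 and 7.64e-15). Of the 7 genes of mitochondrial uptake, 1 rose and 3 fell in mimic cells (57.1%, against 80.7% of all genes) and 1 rose and 6 fell in inhibitor cells (100%, against 80.6% of all genes) against vehicle. Mcub, the inhibitory subunit of the uniporter, averaged 71.3 CPM in inhibitor and 225 CPM in vehicle (-1.66 ± 0.0574, edgeR adjusted p = 6.66e-16). Inhibitor control was lower than mimic control in 6 of the 7 and higher in 0 (85.7%, against 74.2% of all genes), as for Mcub, at 70.9 CPM in inhibitor control and 152 CPM in mimic control (-1.10 ± 0.0571, edgeR adjusted p = 1.02e-12).

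**Figure D5:**
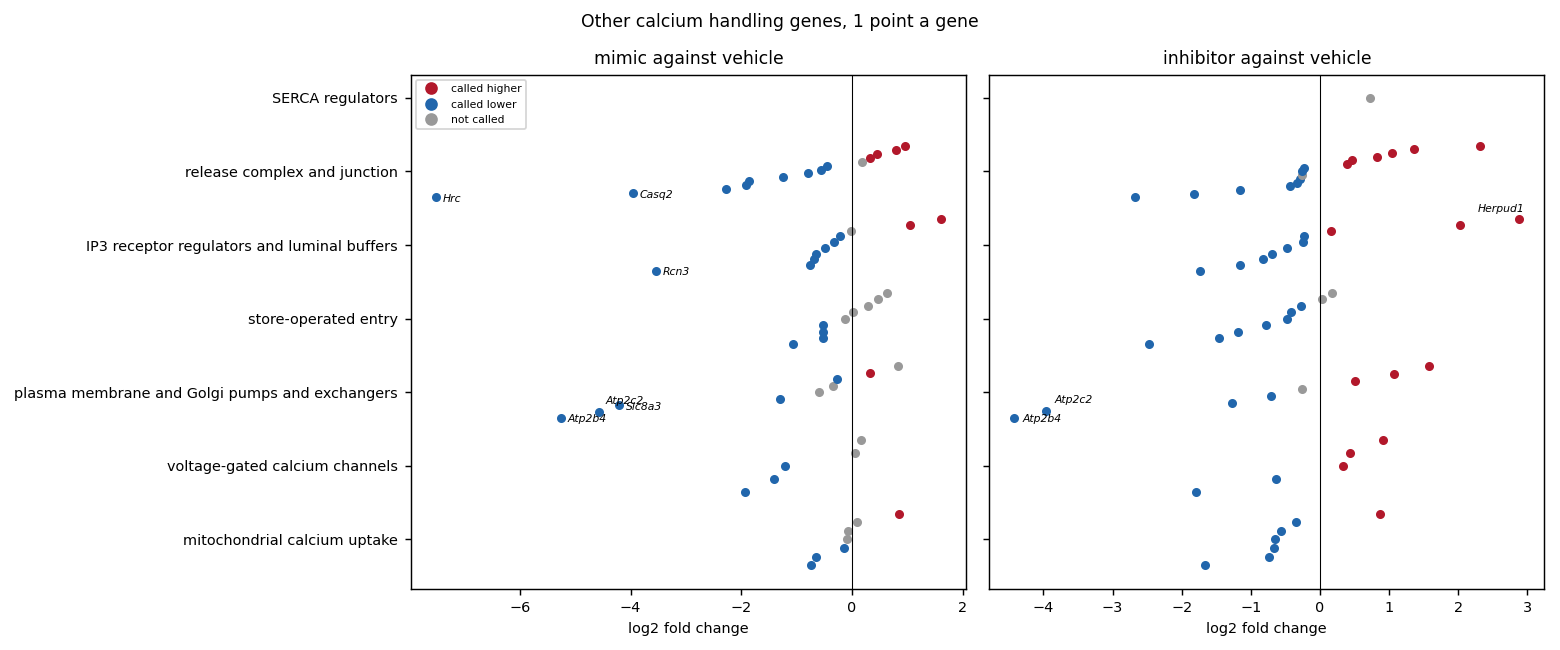
Log2 fold change of the tested genes of the 7 lists in mimic against vehicle (left) and inhibitor against vehicle (right), 1 point a gene, leaving out genes with 3 or fewer reads in either group compared. Red points passed as higher, blue as lower and grey did not pass. Hrc at -7.52 and Atp2b4 at -5.26 are the lowest on the left, with Hrc near the detection limit in mimic. Herpud1 at 2.88 is the highest on the right.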

How the data were processed

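Gene expression was measured in 18 HL-1 libraries. Stranded mRNA libraries were read as 150 nt pairs, per the labels' protocols. Raw reads with over 2 N bases were removed, FASTX-Toolkit 0.0.13 trimmed adaptors and low-quality ends, those left under 16 nt were removed, and HISAT2 aligned to GRCm39 with 4 mismatches allowed, per the same protocols. The authors deposited read counts of uniquely mapped reads per gene, and FPKM values for 28907 genes. The submitters' processing notes name DESeq2 without its role. The sources used here name neither the counter, its strand setting nor the annotation, so reads of overlapping antisense genes may be shared and near-identical copies may be under-counted.

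Counts were tested with edgeR 4.0.16 (R 4.3.3): filterByExpr (minimum count 10, total 15), TMM scaling, a quasi-likelihood fit with 1 term per group over all 18 libraries (12 residual degrees of freedom) and Benjamini-Hochberg adjustment over 15074 genes. Calls are at an adjusted p under 0.05. CPM are TMM-scaled, except marker sums, which use library totals. Standard errors are the log2 fold change over the square root of the F statistic, and intervals use 12 degrees of freedom. The library totals of 33655916 to 37928790 reads limit precision by counting error. The groups were taken from the labels, and the fit was tested on simulated data. Alternatives were DESeq2 1.42.0, its size factors, no filter, the compared groups alone, a replicate block, limma 3.58.1 on log2(FPKM + 1) and log2(FPKM + 0.1), and leaving out each library. For the partner lists the fit without mimic replicate 2 was added after seeing the data.

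All 10 genes are named. From each list of partners up to 3 called genes with the largest change in a contrast may be named. A gene that met this rule is not reported here. The members, lists and tests were chosen with earlier results of these data known. Sites were searched in the Ensembl canonical transcript of GENCODE M39, and promoters and the microRNA are RefSeq's.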

Additional observations from a re-analysis of the deposited data

Results flagged for a closer look

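The effect of the mimic differed from that of the inhibitor, each against its own negative control, in 3 of the 10 genes by edgeR's interaction test. Of all tested genes 13.2% passed this test, 8.59% with a lower mimic effect. Atp2a3 differed by -0.37 on the log2 scale, from -0.36 for the mimic and 0.01 for the inhibitor, and this is a description, since the libraries of both negative controls had entered the choice of the gene. Atp2a2 differed by -0.22 (adjusted p = 0.0152), from -0.24 for the mimic and -0.02 for the inhibitor. Itpr3 differed by -0.28 (adjusted p = 0.0425), from -0.40 for the mimic and -0.11 for the inhibitor, and that call was lost in 12 of 19 alternative settings, with an adjusted p of up to 0.106. In the mimic comparison all 3 mimic libraries were below all 3 mimic control libraries for these genes. Libraries did not overlap in that comparison for 44.8% of all genes, in either direction. In the inhibitor comparison the libraries of these genes overlapped. Atp2a2 and Itpr3 overlap genes on the opposite strand, and Atp2a3 does not.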

How the results depend on the processing

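Of 70 tested values of the 10 genes, 39 were called, and 33 of these held in every alternative. These counts include the Atp2a3 differences given above as descriptions, since libraries of those contrasts had entered the choice of the gene. Of the 31 not called, 26 stayed so, and 0 changed sign while called. The report gives most values that crossed the threshold. Without mimic replicate 2, tried for the partner genes after seeing the data, Cracr2a turned to -0.45 in mimic against mimic control and to -1.62 against vehicle, and Cracr2b to -0.66 against vehicle. Over all genes, inhibitor against inhibitor control gave 0 calls, 1 when only these groups were fitted and 26 with no count filter. The interaction gave 1993 calls, and 1244 to 2207 when single libraries were left out, with 1304 without inhibitor control replicate 2, 1244 without inhibitor control replicate 3 and 1286 without mimic control replicate 1. For the numbers of genes lost the cause was not tested. With the replicate number as a block, the Itpr3 interaction was lost (adjusted p = 0.0589) and Ryr2 passed in mimic against vehicle (0.0451). Deviations of same-numbered libraries correlated at -0.174 to 0.0429, so no shared deviation was seen. With 3 libraries a group this does not settle whether same-numbered libraries were prepared together. Median log2 fold changes of all genes were within 0.05 of 0 under TMM and DESeq2's factors. Scaled to library totals alone they were 0.22 in inhibitor control against mimic control and -0.15 in mimic control against high glucose. On log2(FPKM + 1), which understates low genes, the Atp2a3 difference from high glucose was 2.94 in mimic control and 2.59 in inhibitor control, against 5.15 and 4.62 from counts. Depth limits Atp2a1, Ryr1 and Ryr2 in the mimic pair, where they had 23 to 86 reads a group.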
